A study of Mus musculus with 34 samples.

Results

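Gene expression was compared in the left ventricle of mice injected with AC or Luc modified mRNA (modRNA) and collected 24 h after myocardial infarction (MI). Of the 34 samples of the series, 6 belonged to this comparison, 3 injected with AC (libraries a, c and d) and 3 with Luc (libraries A, C and D), and they were chosen by their sample labels. All 6 were CFW mice, an outbred stock, with MI by a lasting LAD ligation (a coronary artery of the left ventricle) and modRNA injected at the infarct border straight afterwards. The Luc hearts thus had the same kind of operation and injection as the AC hearts. The size of each infarct is not part of the data used here. The sex and age of the mice are not given in the sources used here, nor is the meaning of AC, although RefSeq lists AC as a synonym of Asah1. The same table of 24 libraries held AC and Luc hearts at 4 h (4 and 4) and 48 h (4 and 4) after MI and 2 hearts 4 h after sham operation, which give the levels set beside the 24 h values. The 24 h labels hold letters and an unexplained Br, whereas those of the other hearts hold numbers. Time and label series therefore cannot be told apart where 24 h levels stand beside sham hearts or other times. The tissue was labelled as left ventricle only, and the labels do not say whether each library was 1 mouse.

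Acid ceramidase, encoded by Asah1, cleaves ceramide to sphingosine and a fatty acid in the lysosome. Sphingosine kinases then make sphingosine-1-phosphate, which acts through its own receptors, while ceramide itself is known to promote cell death. The infarcted ventricle a day after ligation holds dying cardiomyocytes and infiltrating leukocytes. Nucleic acid that enters cells can evoke type I interferon, which raises interferon-stimulated genes and the class I antigen presentation machinery, and modRNA carries modified nucleosides that lessen this response.

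Levels are in CPM, reads on a gene scaled to the depth of its library (deposited as CPM plus 1), and by the step between low values the 6 libraries held about 19100000 to 21600000 reads on the listed genes, so that 1 read was worth 0.0318 to 0.0398 CPM. Cardiomyocyte genes were high in every library, with a summed level of 21 sarcomere genes between 73211 and 104667 CPM. A pair of AC libraries stood apart. In AC d, 39 liver markers summed to 733 CPM, against 21.8 to 117 CPM in the other 23 libraries, and albumin (Alb) stood at 113 CPM in AC d and at or under 0.146 CPM in the other 5. In AC c, log2 levels correlated with the other 5 libraries at r = 0.954 to 0.963 across genes, which are not independent replicates, whereas the other libraries correlated among themselves at 0.972 to 0.984. AC c also held the lowest summed immediate early genes, 507 CPM against 971 to 1560 CPM. List medians are therefore given with all 6 libraries and without AC d, and values without another library are added for some lists. Levels of single genes are given by library.

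Asah1 was the gene with the largest difference and the lowest p-value. It stood at 305 CPM in AC a, 104 CPM in AC c and 190 CPM in AC d. In Luc A, C and D it stood at 22.6, 21.98 and 24.7 CPM. The groups did not overlap, and even the lowest AC library was above 4 times the highest Luc library, whose levels lay close to the 32.9 and 25.1 CPM of the sham hearts. The mean was 199.9 ± 101 CPM with AC and 23.1 ± 1.42 CPM with Luc (SD, n = 3 each), a ratio of 8.66, and 8.87 without AC d. On the log2(CPM + 1) scale the difference was 2.93 ± 0.33 (SE), with an unadjusted limma p of 1.89e-05 and an adjusted p (q value) of 0.237. A two-sided exact permutation test gave p = 0.1, the smallest that 3 against 3 allows, and 0.2 without AC d, the smallest that 2 against 3 allows. The AC libraries were spread widely and the Luc libraries narrowly. With the spread estimated from all 24 libraries, the same difference had an adjusted p of 1.60e-04 by limma, and without AC c the fit of the compared libraries called Asah1 as well. Reads from the injected RNA and from the endogenous gene (chromosome 8, 41340646 to 41374697, minus strand, mm10) cannot be told apart in this table.

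**Figure D1:**
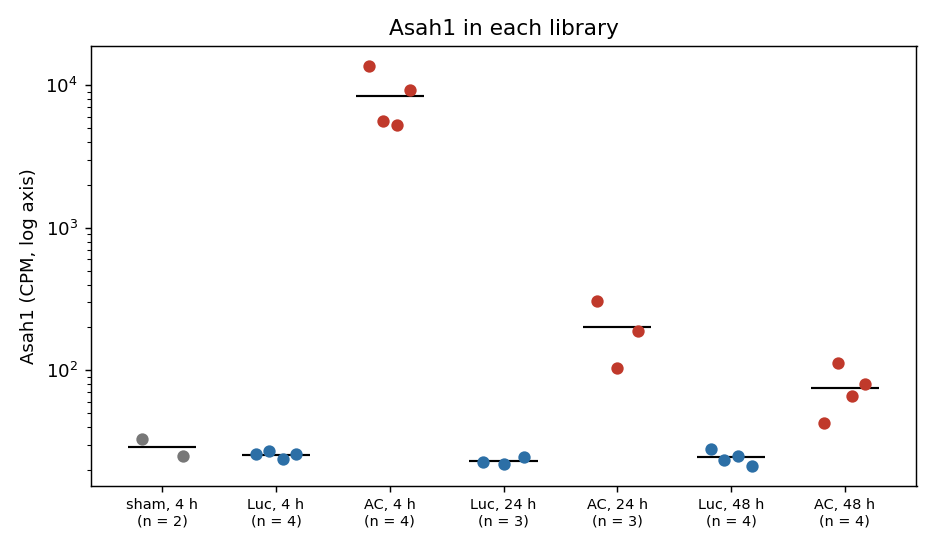
Asah1 level in CPM (log axis) in each of the 24 libraries, by group and time, where each point is 1 library and each bar the group mean. All AC libraries lie above all Luc libraries at each time, with a lower AC mean at each later time and Luc libraries between 21.4 and 28.2 CPM throughout.

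The excess of Asah1 was smaller at 24 h than at 4 h. At 4 h the AC libraries held 13703, 5597, 5296 and 9229.8 CPM and the Luc libraries 23.9 to 27.2 CPM. At 48 h they held 42.5, 112, 66.4 and 80.3 CPM against 21.4 to 28.2 CPM. The difference between AC and Luc was smaller at 24 h than at 4 h by 5.27 on the log2 scale (limma interaction contrast, adjusted p = 5.15e-07), and Asah1 was the sole gene of 12555 to pass this test (0.00796% of the genes tested). Against 48 h the difference was higher at 24 h by 1.42, which did not pass (adjusted p = 0.0957). The AC libraries at 24 h and 48 h did not quite separate, since AC c at 24 h lay under the highest AC library at 48 h.

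The other ceramidases overlapped between the groups with 6 libraries. Asah2, the neutral ceramidase, stood at 9.23, 10.7 and 11.7 CPM with AC and 12.9, 14.2 and 7.72 CPM with Luc. The alkaline ceramidase Acer2 stood at 60.9, 80.2 and 42.4 CPM with AC and 56.0, 58.2 and 40.6 CPM with Luc, and Acer3 at 8.99, 5.12 and 8.05 CPM against 7.99, 9.93 and 9.17 CPM. Their log2 differences were -0.09, 0.21 and -0.28 in that order. Without AC d, Acer2 was higher in both AC libraries (log2 difference 0.45). Of the kinases that make sphingosine-1-phosphate, Sphk2 was lower in every AC library (26.5, 25.2 and 24.2 CPM against 29.5, 31.2 and 34.3 CPM, a log2 difference of -0.31 ± 0.13 SE, adjusted p = 0.994 by limma). Sphk1, which injury induces, was low in 1 library, with 49.3, 12.6 and 42.2 CPM with AC and 64.2, 44.0 and 46.6 CPM with Luc. The receptor S1pr1 stood at 110, 76.3 and 108 CPM with AC and 114, 95.9 and 98.6 CPM with Luc, and S1pr3 at 47.4, 42.1 and 32.5 CPM against 49.5, 25.6 and 23.04 CPM.

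Across the 13 tested genes of ceramide hydrolysis and sphingosine phosphate, the median log2 difference was -0.03, equal to that of all genes tested (-0.03), and it was -0.07 without AC d. Among 21 tested genes of ceramide and sphingomyelin synthesis the median was -0.01 with and without AC d. In that list 1 gene was higher and 1 lower without overlap, beside 2.41% and 6.92% of all genes. Without AC d 3 were higher and 1 lower, beside 6.36% and 12.6% of all genes. With 6 libraries the higher one was Cers5, a ceramide synthase (21.5, 21.8 and 21.2 CPM against 19.5, 17.0 and 18.8 CPM). The lower one was Cers6 (7.68, 7.78 and 8.57 CPM against 10.21, 8.69 and 9.64 CPM). Their log2 differences were 0.21 and -0.22. Smpd1, the acid sphingomyelinase, stood at 173, 184 and 186 CPM with AC and 205, 177 and 209 CPM with Luc.

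No gene had a q value under 0.05 (0% of 12555), either with 6 libraries or without AC d (0%). At an unadjusted limma p under 0.05 there were 551 genes with 6 libraries, 73 higher and 478 lower with AC, and 568 without AC d, 113 higher and 455 lower. These counts depend on scaling: with median-ratio rescaling they were 452 and 495. The median of all genes then moved from -0.03 to 0.01 in both fits. By limma-voom on reads estimated from the step, no gene passed either. With 1 model of all 24 libraries 1 gene passed (Asah1), and without AC d a second, H2-Q8. What follows is therefore given as levels and counts, beside the share of all genes whose groups did not overlap. AC was lower than every Luc library for 6.92% of the genes and higher for 2.41% with 6 libraries, and for 12.6% and 6.36% without AC d. No list held a member with a q value under 0.05 in either fit.

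**Figure D2:**
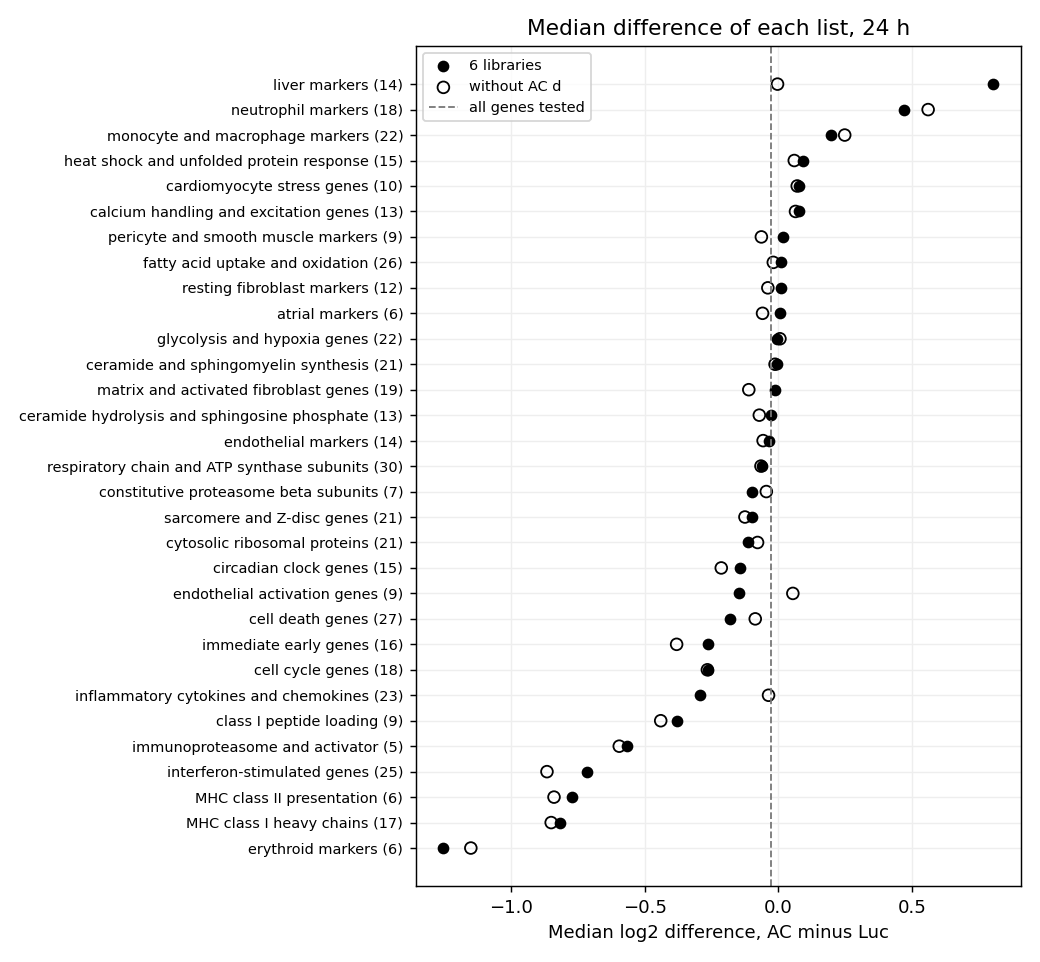
Median log2 difference, AC minus Luc at 24 h, of each list with 5 or more genes tested (number in brackets), with 6 libraries (filled) and without AC d (open), and the dashed line at the median of all genes tested (-0.03). Erythroid markers, class I and II genes and interferon-stimulated genes lie lowest in both, and the liver markers move from 0.80 to 0.00 when AC d is left out.

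Genes of class I antigen presentation were lower with AC. Class I molecules show peptides from inside the cell to CD8 T cells, the immunoproteasome cuts those peptides, and Tap1, Tap2 and Tapbp move and load them. This set was put together after the values were seen, and is described without a test of the set. Of 17 tested class I heavy chain genes, 16 had a log2 difference under 0, with a median of -0.82. Of the 17, 7 were lower in every AC library than in every Luc library (6.92% of all genes were). None was higher in every AC library. Of 5 immunoproteasome and activator genes, 4 did not overlap (median -0.56), and of 9 peptide loading genes, 4 (median -0.38). Without AC d these counts were 9, 4 and 5 (12.6% of all genes were lower), with medians of -0.85, -0.59 and -0.44. Then 1 heavy chain gene (H2-T24) was higher in both AC libraries (6.36% of all genes were). The loading median ranged from -0.15 without Luc A to -0.65 without Luc D.

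**Figure D3:**
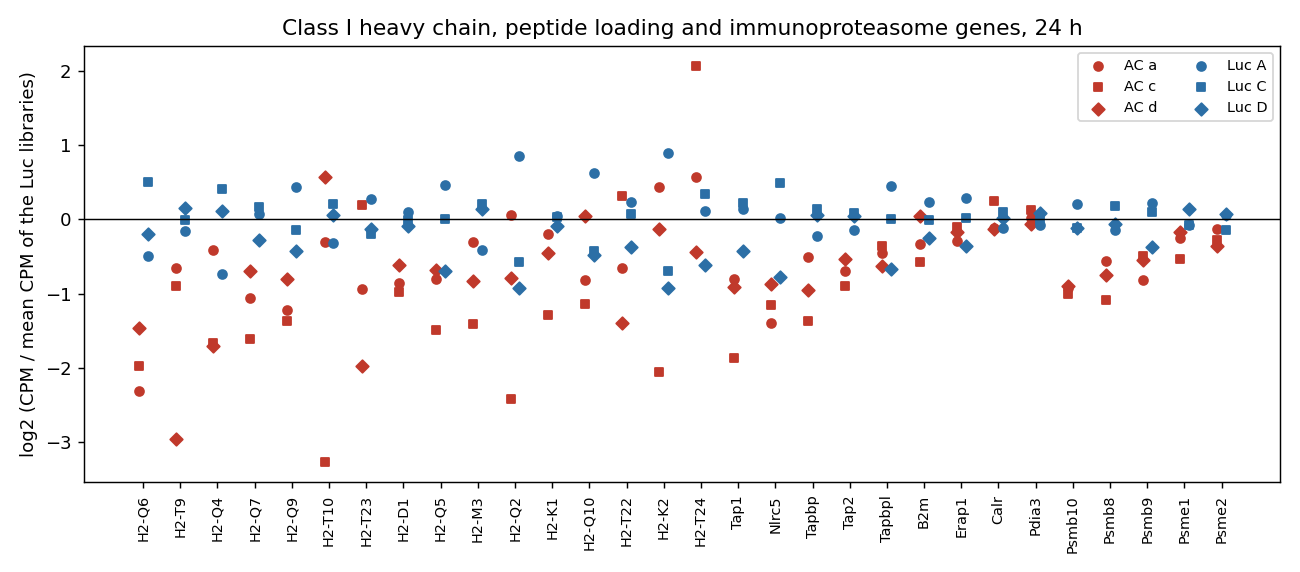
Level of each class I heavy chain, peptide loading and immunoproteasome gene with a mean of at least 5 CPM, as log2 of its CPM over the mean CPM of the Luc libraries, in each AC (red) and Luc (blue) library. All 3 AC libraries lie under the Luc libraries for H2-D1, H2-K1, H2-Q6, H2-Q7, Tap1, Tap2, Tapbp, Psmb8 and Psmb10, whereas H2-T10, H2-T23 and H2-T24 scatter among the AC libraries.

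Psmb10, an immunoproteasome subunit, had the second-lowest p-value of all genes. It stood at 55.2, 52.2 and 56.2 CPM with AC and at 122, 97.3 and 96.7 CPM with Luc. The AC libraries thus lay close together and all below the Luc libraries. The Luc mean was 1.93 times the AC mean, with a log2 difference of -0.93 ± 0.14 (SE, adjusted p = 0.735 by limma). Psmb8, a second immunoproteasome subunit, stood at 59.6, 41.4 and 52.2 CPM against 79.8, 99.8 and 84.0 CPM, a log2 difference of -0.78 ± 0.17. Psmb9 stood at 11.3, 14.0 and 13.5 CPM against 22.9, 21.1 and 15.3 CPM. The constitutive proteasome had a median nearer to that of all genes. For its 7 beta subunits (Psmb1 to Psmb7) the median log2 difference was -0.10 (-0.04 without AC d). None of the 7 separated the groups, beside 6.92% of all genes lower and 2.41% higher. A count of 0 among so few genes does not set them apart from other genes. Psmb5 stood at 59.0, 58.7 and 54.6 CPM with AC and 63.3, 54.1 and 69.2 CPM with Luc.

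The classical heavy chains H2-D1 and H2-K1 were heavy chains of high level. H2-D1 (chromosome 17, 35263094 to 35267497, plus strand) stood at 258, 238 and 305 CPM with AC and 501, 464 and 442 CPM with Luc, so that the Luc mean was 1.76 times the AC mean (log2 difference -0.82 ± 0.13 SE, adjusted p = 0.940 by limma). In the sham hearts it stood at 87.8 and 109 CPM, below all 6 infarcted hearts. H2-K1 stood at 402, 189 and 339 CPM against 478, 476 and 437 CPM, and here AC c was lowest by far. Beta-2 microglobulin (B2m), the common light chain, overlapped, with 443, 377 and 578 CPM against 657, 555 and 468 CPM, but without AC d both AC libraries were lower (log2 difference -0.44).

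Among the nonclassical genes, H2-Q6 had the log2 difference farthest below 0 of the genes picked by the naming rule, at 5.37, 6.77 and 9.68 CPM with AC and 18.8, 37.9 and 23.2 CPM with Luc (log2 difference -1.71 ± 0.29). H2-Q7 stood at 16.2, 11.0 and 20.8 CPM against 35.3, 37.8 and 27.8 CPM, and H2-Q8 at 1.23, 1.55 and 4.23 CPM against 5.59, 9.77 and 6.49 CPM. These values are uncertain as single genes. The annotations of H2-Q6 and H2-Q8 overlap on the same strand, as do those of H2-Q7 and H2-Q9, and 27.0% of the 50-base windows of H2-Q6 transcripts and 24.5% of those of H2-Q7 also occurred in another tested class I gene (GENCODE M21), against 10.5% for H2-D1 and 9.63% for H2-K1. H2-T10 stood at 22.2, 2.84 and 40.8 CPM with AC and 22.1, 31.8 and 28.8 CPM with Luc, and its direction turned without AC c.

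Of the loading genes, Tap1 stood at 86.1, 41.2 and 80.6 CPM with AC and 166, 175 and 112 CPM with Luc, and Tap2 at 48.6, 42.4 and 54.4 CPM against 71.3, 83.9 and 81.2 CPM. Tapbp, which bridges the heavy chain to the transporter, stood at 194, 107 and 142 CPM against 235, 304 and 286 CPM. Nlrc5, the transcriptional activator of class I genes, stood at 24.8, 29.4 and 35.6 CPM against 66.2, 91.7 and 38.1 CPM. For all 4 genes every AC library was lower, and their sham levels were 10.7 and 18.5 CPM (Tap2) to 62.4 and 70.9 CPM (Tapbp), with Tap1 at 7.24 and 9.76 CPM and Nlrc5 at 3.19 and 5.14 CPM. The chaperones Calr and Pdia3 overlapped, with log2 differences of 0.00 and 0.03. Summed over the 23 listed heavy chain genes, AC stood at 967, 672 and 872 CPM and Luc at 1428, 1441 and 1307 CPM, against 283 and 313 CPM in sham hearts.

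Interferon-stimulated genes were lower in the same direction, with a wider spread. All 25 listed genes were tested and all 25 had a log2 difference under 0, with a median of -0.72, and -0.87 without AC d. Of these, 6 were lower in every AC library (6.92% of all genes were), and 10 without AC d (12.6% of all genes). Their summed level was 2809, 1439 and 2739.9 CPM with AC and 4394, 5543 and 2810.4 CPM with Luc. The groups did not overlap, although AC a and Luc D nearly met, and the sham hearts stood at 191 and 162 CPM. AC c was the lowest library, and without it the median was -0.51.

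Isg15, a ubiquitin-like modifier, stood at 71.4, 40.9 and 63.1 CPM with AC and 111, 128 and 77.5 CPM with Luc (log2 difference -0.85 ± 0.25 SE, adjusted p = 0.994 by limma). Stat2, part of the complex that carries the interferon signal to the nucleus, stood at 103, 66.2 and 98.3 CPM against 142, 201 and 122 CPM. Rsad2, an antiviral enzyme, stood at 267, 71.8 and 171 CPM against 276, 785 and 303 CPM, where AC a and Luc A nearly met. Ifit1 and Ifit3, which bind foreign RNA or partner with its binders, overlapped: Ifit1 stood at 221, 84.0 and 249.8 CPM against 432, 372 and 182 CPM, and Ifit3 at 309, 132 and 427 CPM against 651, 552 and 302 CPM. Dhx58, a helicase that senses RNA and that the naming rule picked, stood at 29.3, 11.1 and 17.1 CPM against 37.6, 77.5 and 41.4 CPM. Parp10, picked likewise, stood at 73.0, 38.1 and 72.4 CPM against 131, 144 and 107 CPM.

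The promoters of several of these genes share a short element, and 30-base windows around it are shown because all of the genes had a log2 difference under 0. The element searched was the core of the interferon-stimulated response element, GAAANNGAAA, on both strands of the 250 bases before each RefSeq start (GRCm38.p6), and its match, or the match of its reverse complement, is in capitals.
Ifit1, chr19:34640775-34640804, plus strand: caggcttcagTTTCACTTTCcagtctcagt
Ifit3, chr19:34583363-34583392, plus strand: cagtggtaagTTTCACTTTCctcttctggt
Isg15, chr4:156200865-156200894, minus strand: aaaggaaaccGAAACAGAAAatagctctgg
Rsad2, chr12:26456553-26456582, minus strand: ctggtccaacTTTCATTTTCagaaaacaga
Stat2, chr10:128270266-128270295, plus strand: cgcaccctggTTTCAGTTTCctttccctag
B2m, chr2:122147538-122147567, plus strand: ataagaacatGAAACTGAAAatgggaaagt
The element was found in 10 of the 18 interferon-stimulated genes that had a promoter in the table, in 2 of 10 class I heavy chain genes, in 1 of 6 loading genes (B2m) and in none of 5 immunoproteasome genes, against 3.46% of 27025 genes. A match is a description of the letters and not a shown binding site. Matches overlap in Isg15, where the element was found 3 times.

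MHC class II genes, which antigen-presenting cells use to show peptides taken up from outside, were also lower. Of 6 tested genes 3 were lower without overlap (6.92% of all genes were), and 3 without AC d (12.6% of all genes). The median log2 difference was -0.77, and -0.84 without AC d. The summed list stood at 115, 132 and 146 CPM with AC and 173, 234 and 291 CPM with Luc, with no overlap. Cd74, the invariant chain, stood at 64.1, 73.5 and 79.7 CPM against 97.9, 132 and 161 CPM, and H2-Aa at 26.2, 20.5 and 24.8 CPM against 34.6, 38.9 and 50.6 CPM. H2-Ab1 stood at 13.1, 13.6 and 16.6 CPM against 20.4, 29.1 and 36.5 CPM. The sham hearts stood at 248 and 262 CPM summed, between the 2 upper Luc libraries, unlike the class I and interferon-stimulated genes. In bulk tissue, fewer cells of a type and less RNA per cell cannot be told apart.

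Markers of blood moved with these groups. Of 6 tested erythroid markers, all 6 had a log2 difference under 0 (median -1.25, and -1.15 without AC d). Of the 6, 3 were lower without overlap (6.92% of all genes were), and 3 without AC d (12.6% of all genes). Their summed level was 429, 201 and 230 CPM with AC and 970, 650 and 427 CPM with Luc, where AC a lay just above Luc D, and the sham hearts themselves stood at 669.9 and 216 CPM. Hbb-bs, a beta globin chain, stood at 88.7, 39.6 and 38.5 CPM against 219, 140 and 90.2 CPM. Blvrb, biliverdin reductase B, which red cells hold in quantity, stood at 4.73, 6.39 and 4.89 CPM against 11.5, 10.8 and 14.0 CPM. Hbb-b2 and Hbb-bt have identical values in all 6 libraries, and as near-identical copies they are uncertain as single genes. The part of blood in the class I, class II and interferon results was not tested.

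Leukocyte markers differed less clearly between the groups than between libraries. The neutrophil list had a median log2 difference of 0.47 over 18 tested genes (0.56 without AC d, and 0.06 without AC c). Of the 18, 1 was lower in every AC library with 6 libraries, Hdc (log2 difference -1.01, and -1.06 without AC d), and none was higher. Of all genes, 6.92% were lower and 2.41% higher. Without AC d 2 of the list were lower (Hdc and Ngp) and 1 was higher (Clec4d, log2 difference 0.94), beside 12.6% and 6.36% of all genes. The summed level of the list was 1054, 965 and 608 CPM with AC and 1584, 533 and 598 CPM with Luc. Lcn2 and Lrg1 had the highest means in that sum, 494 and 150 CPM over the 6 libraries. The alarmin S100a9 stood at 23.3, 154 and 43.4 CPM against 42.2, 20.7 and 30.4 CPM, so AC c alone was high, and Lcn2 at 736, 338 and 304 CPM against 1069.8, 227 and 286 CPM. Ngp, a granule protein of maturing neutrophils, stood at 6.56, 5.40 and 15.7 CPM against 19.3, 14.1 and 14.5 CPM and separated the groups without AC d. Lymphocyte markers were scarce, and 1 of 13 passed the filter on low values, Cd3e, at 2.52 to 6.79 CPM in all 6 libraries.

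Macrophage markers gave a median of 0.20 over 22 genes and 0.25 without AC d, but -0.01 without AC c and 0.03 without Luc C, so the value rested on single libraries. Of the 22, 1 was higher and 2 lower without overlap, beside 2.41% and 6.92% of all genes. Without AC d 3 were higher (Mrc1, Msr1 and Cd163) and 2 lower, beside 6.36% and 12.6% of all genes. Mrc1, the mannose receptor of resident macrophages, was higher in every AC library, at 24.0, 24.5 and 19.0 CPM against 17.0, 12.3 and 14.3 CPM (log2 difference 0.60 ± 0.18 SE, adjusted p = 0.994 by limma). The complement genes went the other way. C1qb stood at 50.7, 49.4 and 50.4 CPM with AC and 63.7, 52.6 and 73.8 CPM with Luc, and C1qc at 31.5, 31.7 and 33.9 CPM against 42.1, 34.2 and 51.9 CPM. Arg1, a marker of wound macrophages, stood at 0.199, 10.6 and 5.61 CPM with AC and at or under 0.547 CPM with Luc, high in 2 of 3 AC libraries.

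Cytokines and endothelial activation split the libraries across the groups. Cxcl1, which draws neutrophils, stood at 632, 24.0 and 63.2 CPM with AC and 675, 86.6 and 83.0 CPM with Luc, high in AC a and Luc A. Icam1, an adhesion molecule of activated endothelium, stood at 985, 44.4 and 125 CPM against 655, 141 and 132 CPM, again high in a and A. The summed cytokine list was 1925 CPM in AC a and 2458 CPM in Luc A and between 441 and 657 CPM in the other 4 libraries. Its median log2 difference over 23 tested genes was -0.29, -0.04 without AC d and 0.41 without Luc A. That of 9 endothelial activation genes was -0.15, and 0.05 without AC d. Cxcl10, an interferon-induced chemokine, stood at 120, 10.0 and 28.8 CPM with AC and 128, 115 and 85.0 CPM with Luc. Ccl5, which draws T cells, stood at 32.6, 4.80 and 19.995 CPM against 44.3, 33.8 and 35.1 CPM and was lower in every AC library.

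**Figure D4:**
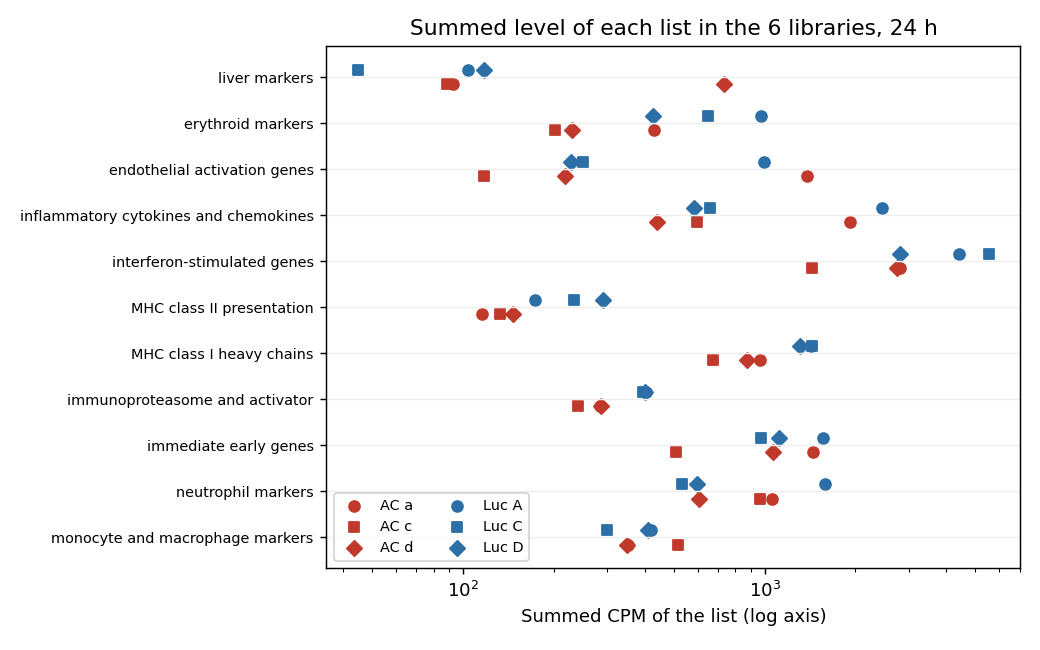
Summed CPM (log axis) of 11 lists in each AC (red) and Luc (blue) library at 24 h, with the letter of the library given by the marker. AC and Luc do not overlap for interferon-stimulated genes, class II, class I and immunoproteasome genes, AC d stands alone for liver markers (733 CPM), and AC a and Luc A stand together for endothelial activation (1383 and 994 CPM).

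The cardiomyocyte and cell death lists are likewise given as levels and counts, since no gene of all 12555 passed the test. Over 21 sarcomere genes the median log2 difference was -0.10 (-0.12 without AC d). Of the 21, 3 were lower without overlap (6.92% of all genes were), and 5 without AC d (12.6% of all genes). Of 10 cardiomyocyte stress genes, 1 was lower and 1 higher without overlap, beside 6.92% and 2.41% of all genes. Myh6, the adult ventricular myosin heavy chain, stood at 21942, 17201 and 22606 CPM with AC and 24992, 21302 and 27749 CPM with Luc. Myh7, the fetal isoform, was lower in every AC library, at 1427, 1308 and 1621 CPM against 1804, 1709 and 2483 CPM, while Nppa, the atrial natriuretic peptide, was higher in every one, at 1151, 488 and 471 CPM against 460, 316 and 324 CPM. Nppa also marks atrium, and the atrial markers Myl7 (112, 9.05 and 36.1 CPM against 46.2, 17.0 and 61.3 CPM) and Myl4 were highest in AC a. The median of 6 tested atrial markers was 0.01, and -0.06 without AC d. It was -0.74 without AC a and 0.83 without AC c. The stress-induced Xirp2 stood at 435, 741 and 421 CPM against 299, 299 and 437 CPM. Fatty acid genes (26 tested) had a median of 0.01 (-0.02 without AC d), and respiratory chain genes (30 tested) of -0.06 with and without AC d.

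Among 27 tested cell death genes, 20 had a log2 difference under 0, with a median of -0.18, and -0.09 without AC d. Of the 27, 2 were lower without overlap and none was higher, beside 6.92% and 2.41% of all genes. Without AC d 3 were lower and none was higher, beside 12.6% and 6.36% of all genes. Casp4, an inflammatory caspase, stood at 33.7, 7.43 and 12.05 CPM with AC and 28.4, 31.2 and 19.2 CPM with Luc, and Mlkl, which carries out necroptosis, at 15.95, 11.1 and 10.3 CPM against 20.02, 26.9 and 15.3 CPM, both overlapping with log2 differences of -0.78 and -0.68. The survival gene Mcl1 stood at 225, 189.8 and 234 CPM with AC and 226, 166 and 173 CPM with Luc, and Bcl2l1 at 170.2, 91.9 and 201 CPM against 198, 189.6 and 235 CPM. Immediate early genes had a median of -0.26, -0.38 without AC d and 0.00 without AC c. Matrix genes had a median of -0.01 (-0.11 without AC d). Among them Col4a1, a basement membrane collagen, was lower in every AC library (725, 534 and 815 CPM against 1017, 873 and 1077 CPM). Cytosolic ribosomal proteins (21 tested) had a median of -0.11 (-0.08 without AC d). Of them, 6 were lower in every AC library (6.92% of all genes were), and 6 without AC d (12.6% of all genes). Cell cycle genes had a median of -0.26 (-0.27 without AC d and -0.16 without AC c). Circadian clock genes had a median of -0.14 (-0.21 without AC d), which turned to 0.05 without AC c and 0.01 without Luc D. Medians of the heat shock, glycolysis, resting fibroblast, endothelial and pericyte lists lay between -0.04 and 0.09, and between -0.06 and 0.06 without AC d.

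Other genes picked by the naming rule follow. The rule took at most 12 in each direction, and on the lower side this limit was reached in both fits. Hap1, a trafficking protein best known from neurons, stood at 15.7, 6.32 and 14.9 CPM with AC and 41.5, 45.0 and 28.8 CPM with Luc, against 1.43 and 1.84 CPM in sham hearts. Its log2 difference was -1.64 ± 0.33 (SE, adjusted p = 0.994 by limma). Higher with AC were Ndrg4, at 188, 127 and 157 CPM against 99.1, 104 and 113 CPM, and Vldlr, the receptor for very low density lipoprotein, at 191, 244 and 258 CPM against 177, 157 and 150.1 CPM. The polarity gene Patj stood at 18.7, 20.6 and 19.3 CPM against 14.2, 14.2 and 12.6 CPM. Without AC d the rule added Mal, Klhl31, Kcnj5 and Cox7c on the higher side. Kcnj5, a subunit of the atrial potassium channel opened by acetylcholine, stood at 41.2 and 53.7 CPM against 27.3, 32.1 and 29.04 CPM. Cox7c, a respiratory chain subunit, stood at 28.7 and 20.4 CPM against 12.2, 15.3 and 14.6 CPM. On the lower side it added Erdr1, Ngp, H2-Q9, Lag3, Hist1h1c, Sema6b and Gm45927. Of these, Lag3, a checkpoint receptor of lymphocytes, stood at 6.80 and 3.21 CPM against 9.37, 12.2 and 13.7 CPM.

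The pattern at 24 h was set beside the other times. The difference between AC and Luc was compared with that at 48 h in the model of all 24 libraries, and 322 genes passed (2.56% of the genes tested, limma interaction contrast), 280 lower and 42 higher at 24 h than at 48 h. Without AC d it was 185, 166 lower and 19 higher, of which 173 were among the 322. The split depends on scaling: with median-ratio rescaling 292 genes passed, 167 lower and 125 higher, as the median of all genes moved from -0.17 to -0.02. The contrast contains the 48 h libraries, and 301 of the 322 genes also passed in the 48 h comparison of AC with Luc, as did 1926 of all 12555 genes (15.3%), and 246 had a difference above 0 at 48 h and under 0 at 24 h. In the cell cycle list 15 of 18 tested genes were among those lower at 24 h, in the matrix list 9 of 19 and in the class II list 3 of 6, and without AC d 14, 4 and 2. Mki67, a proliferation marker, stood at 6.21, 0.858 and 3.68 CPM with AC at 24 h and 7.22, 4.60 and 7.13 CPM with Luc, whereas at 48 h AC ranged from 21.5 to 40.3 CPM and Luc from 2.45 to 15.2 CPM, so AC lay above Luc at 48 h and overlapped it at 24 h (interaction -2.93, adjusted p = 0.0153 by limma).

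**Figure D5:**
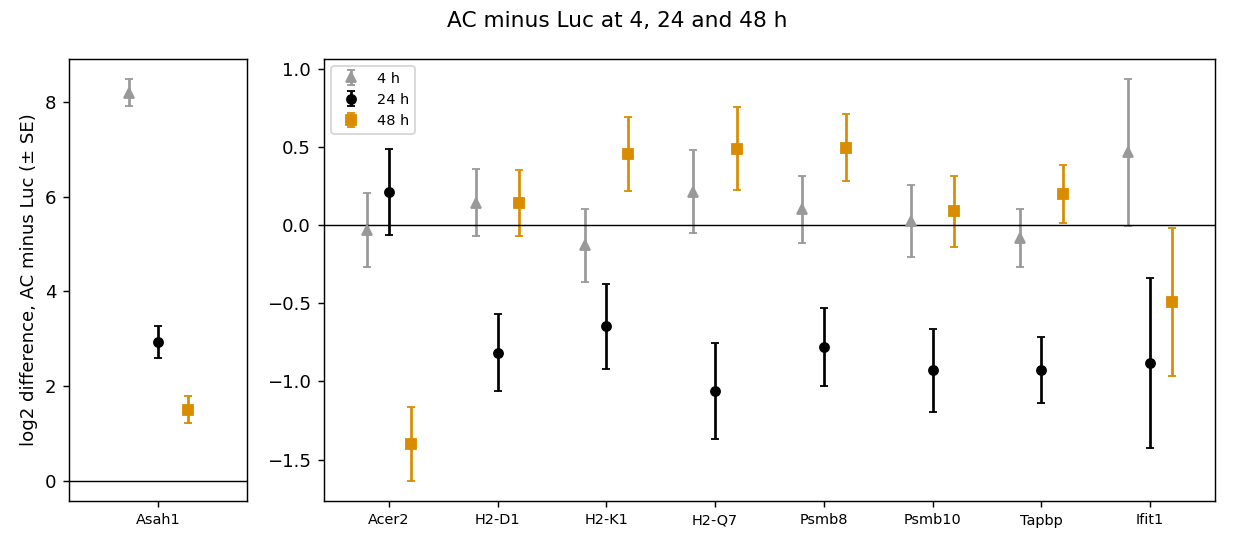
Log2 difference, AC minus Luc, at 4, 24 and 48 h from the model of all 24 libraries, with bars for 1 SE, for Asah1 (left, own axis) and 8 other genes. The class I, loading and immunoproteasome genes lie at -1.06 to -0.65 at 24 h and at -0.13 to 0.49 at 4 and 48 h, while Acer2 lies lowest at 48 h (-1.40).

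Psmb8 had a log2 difference between AC and Luc of 0.10 at 4 h, -0.78 at 24 h and 0.49 at 48 h. The difference between 24 h and 48 h passed (-1.27, adjusted p = 0.0359 by limma) but did not without AC d (adjusted p = 0.0731). The same held for Tapbp (-1.13, adjusted p = 0.0307, and 0.0721 without AC d) and H2-M3 (-1.02, adjusted p = 0.0471, and 0.0937). H2-Q7 passed in both (-1.55 and -1.75, adjusted p = 0.0414 and 0.0410), as did H2-Q8 (-1.87 and -2.24, adjusted p = 0.0147 and 0.00697). H2-D1 and Psmb10 did not pass (adjusted p = 0.126 and 0.136). Against 4 h, no class I gene passed. Part of the contrast lies in the Luc hearts, whose H2-D1 ranged from 146 to 203 CPM at 4 h and from 138 to 274 CPM at 48 h, under all 3 Luc hearts at 24 h. As the 24 h hearts form a label series of their own, time and series cannot be told apart here. The ceramidase Acer2 went the other way, with a log2 difference of -1.40 at 48 h (12.2 to 17.6 CPM against 25.5 to 62.1 CPM) and the difference higher at 24 h by 1.61 (adjusted p = 0.0184, and 0.0183 without AC d).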

How the data were processed

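RNA from the left ventricle of CFW mice was made into libraries with a stranded poly(A) kit, per the labels, whereas the study's methods name another kit and single 50-base reads for its samples. For those samples the authors used STAR against mm10, Partek's expectation-maximization counting over the RefSeq annotation, and TMM. That the 24 libraries were treated alike is assumed. The deposited values are these CPM plus 1, since the lowest value of each library is 1, and 1 was subtracted. Tests covered genes averaging 1 CPM or more across the 24 libraries (12555 of 17406). The members and lists were chosen with earlier results of these data known.

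Linear models were fitted to log2(CPM + 1) by limma 3.58.1 under R 4.3.3, with moderated variances that follow the mean and Benjamini-Hochberg adjustment over all genes tested. On this scale differences of low genes are understated. The 6 libraries of the comparison were fitted alone, and contrasts between times used 1 mean per group over 24 libraries. The script was tested on simulated data. The step between low values gave the value of 1 read, and 85.0% to 86.8% of values under 1 CPM at 24 h were whole multiples of it within 0.05 reads, too few for a count test, so edgeR-type tests were not run. Intervals of counting error are not given. A two-sided exact permutation test cannot go below 0.1 with 3 against 3 samples or 0.2 with 2 against 3, and nothing says that the samples are separate litters, so p-values measure the spread between these samples.

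Named genes were, in each direction, up to 12 with the largest difference among those with a mean of at least 5 CPM, no overlap and a q value under 0.05, or else an unadjusted p under 0.01, in the fit of 6 libraries and in that without AC d, plus the ceramidases and the members of highest mean of 33 lists. The class I, loading, immunoproteasome and constitutive proteasome lists were chosen after the values were seen. Other list members were picked as examples after their values were seen. Lists were described without set tests. AC and Luc libraries share letters, but deviations from the group means correlated at -0.02 (a with A), -0.07 (c with C) and 0.09 (d with D), so the letters were not treated as pairs. Each of these was changed in turn: the pseudocount (0.1), the filter (none, or 5 CPM), the model (all libraries), the scaling (median ratio), the letter as a replicate block, array weights, the trend, and each library. Limma-voom on estimated reads was added after the data were seen. Coordinates are those of the table (mm10), with the end set 1 lower, as its stop lay 1 past the RefSeq end for 6707 of 12262 genes. The 10 libraries of the other deposited table were not used here.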

Additional observations from a re-analysis of the deposited data

Results flagged for a closer look

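The difference between AC and Luc differed between times, by limma interaction contrasts, for 1 gene between 24 h and 4 h and for 322 genes between 24 h and 48 h. Of the genes named in the text, Asah1 was the one that differed from 4 h (-5.27 on the log2 scale). From 48 h, the difference at 24 h was lower for H2-Q8 (-1.87), H2-Q7 (-1.55), Psmb8 (-1.27), Tapbp (-1.13) and H2-M3 (-1.02), and higher for Acer2 (1.61) and Vldlr (0.94).

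Groups of 3 are too small for a test of single outlying libraries, so the 24 h groups were not examined. Among the 36 groups of 4 at 4 and 48 h that stand beside 9 genes, 5 held a library apart from the other 3. Chance flags about 1 in 20 of independent groups. These groups are not independent, as the same libraries were read for each gene, so several flags can come from 1 library. At 4 h these were the lowest Luc library for H2-D1 (146 CPM), the highest AC library for H2-K1 (240 CPM), H2-Q7 (18.7 CPM) and Tapbp (101 CPM), and the highest Luc library for Tapbp (83.2 CPM).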

How the results depend on the processing

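With 6 libraries the count of genes with a q value under 0.05 stayed at 0 with a pseudocount of 0.1, no filter, a filter at 5 CPM, median-ratio rescaling, no trend, and limma-voom. It was 1 with all libraries in 1 model and 1 with array weights (Asah1 in both), and 0 to 2 when 1 library was left out, the 2 being Asah1 and Baiap2l1 without AC c. Without AC d the count was 2 with all libraries in 1 model and 0 to 6 when a further library was left out. The 6 came without AC a, which leaves AC c as the lone AC library, assumed to vary like the Luc libraries, and 2 came without AC c. No other setting made a call there. With the letter as a replicate block, the count was 0 in both fits, so the pairing changed no call. The count against 48 h was 185 without AC d. Of 2645 values of 177 named genes under the alternatives, 175 had another sign than with 6 libraries. Of those, 8 genes also moved by 1 SD or more when 1 library was left out. Their ranges over the libraries left out were -0.0062 to 3.39 for Alb and -0.051 to 3.29 for Fga (lowest without AC d), -0.21 to 0.70 for Cxcl12, -1.21 to 0.28 for Egr1, -1.58 to 0.14 for H2-T10 and -1.27 to 0.17 for Zfp36 (other sign without AC c), -0.37 to 0.28 for Fhl1 (without Luc C) and -0.32 to 0.40 for Tagln (without Luc D). The causes were not tested. A single read was worth 0.0398 CPM or less, and the text names genes with a mean of about 1 CPM or more.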
